A study of Homo sapiens with 12 samples.

Results

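Integrins and laminins meet at the basement membrane, and the subunits of both were followed here through 4 cell populations made from H9, an established human embryonic stem cell line. The genes were chosen by name: every gene on the array whose symbol marks it as an integrin alpha chain, an integrin beta chain or a laminin alpha, beta or gamma chain. This gave 36 genes, read by 57 of the 47322 probes, of 20046 genes with a probe of their own. They were 18 integrin alpha, 8 integrin beta and 10 laminin genes.

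A laminin is a cross-shaped trimer of 1 alpha, 1 beta and 1 gamma chain that assembles inside the cell and polymerises into a sheet outside it. An integrin is a membrane-spanning pair of 1 alpha and 1 beta chain, and the pair decides which matrix protein the cell can hold. In the embryo, the neural tube rests on a laminin-rich basement membrane, and neural crest cells leave the tube by crossing it and then migrate over matrix with integrins as their main grip.

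The measurements came from Illumina HT-12 bead arrays, 3 arrays in each of 4 groups, labelled as biological replicates. NPC-NC held cells of day 18, induced without feeders and sorted as HNK1+ and p75+. MS5-NC held cells of day 35, induced on the mouse stromal line MS5 and sorted by the same markers. The sox10-NC cells were taken at day 11 after Wnt induction and sorted for GFP from an H9 line with a sox10::GFP reporter. LSB held unsorted neuroepithelial H9 cells of day 11. Induction, day of collection and sort differ together between the groups and cannot be told apart. In such bulk samples, fewer cells of a type and less RNA per cell cannot be told apart either.

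Between 14616 and 17101 probes (30.9% to 36.1%) were detected per array, and the middle probe was read from 18 to 22 beads. With 3 arrays per group, precision is set by the number of arrays. Of 8 neural crest markers, NPC-NC and MS5-NC, although labelled neural crest, showed 3 and 2 on at least 2 arrays, with summed signals of 207 to 369 and 222 to 272. All 8 were detected in sox10-NC and 3 in LSB, with sums of 4980 to 6700 and 269 to 330. SOX10, TFAP2B and FOXD3 were detected on none of the arrays of NPC-NC, MS5-NC or LSB. NGFR, which encodes the sort marker p75, was detected in NPC-NC and sox10-NC but on none of the MS5-NC arrays. The MS5-NC label gives a sort by p75, but the arrays read RNA and not protein, so they cannot check it. Of 6 neuroepithelial markers, 5 were detected in NPC-NC and in MS5-NC, 3 in sox10-NC and 5 in LSB. The 2 sorted groups NPC-NC and MS5-NC are therefore called by their own names throughout.

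Levels are log2 intensities after background correction and quantile normalisation. A value counts as detected when its detection p-value was under 0.01. A change was called when limma's adjusted p (Benjamini-Hochberg over all genes tested) was under 0.05, the difference was at least 2-fold, and the gene was detected on at least 2 of 3 arrays of the higher group. Where a group had no array with detection, the fold is a lower bound. The bound sets each array of that group at its detection floor, the lowest level that passes detection, or at the probe's own level if that was higher.

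Of the 36 genes, 19 were detected on at least 3 of 12 arrays and could be tested, namely 12 of 26 integrin and 7 of 10 laminin genes, within 11280 genes tested. Of these, 11 were detected on all 12 arrays, and the other 8 on some arrays only, so that each of them but ITGA4 had a group with no detection. No array detected ITGA1, ITGAD, ITGAL, ITGAM, ITGAX, ITGB3, ITGB4, ITGB6, ITGB7, ITGB8, LAMB3 or LAMB4. They include the leukocyte chains (ITGAL, ITGAM, ITGAX, ITGAD, ITGB7), the platelet chain ITGB3, and ITGB4 and LAMB3 of the epidermal anchoring complex. Of 5 leukocyte markers, 0 were detected on at least 2 arrays of any group. ITGA10, ITGA2B, ITGA8 and LAMA2 were detected on 1 array each and ITGA9 on 2. Of the 57 probes, 25 were detected on no array, among them all 4 probes of ITGB4. For genes without detection the arrays give only a bound set by background.

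**Figure D1:**
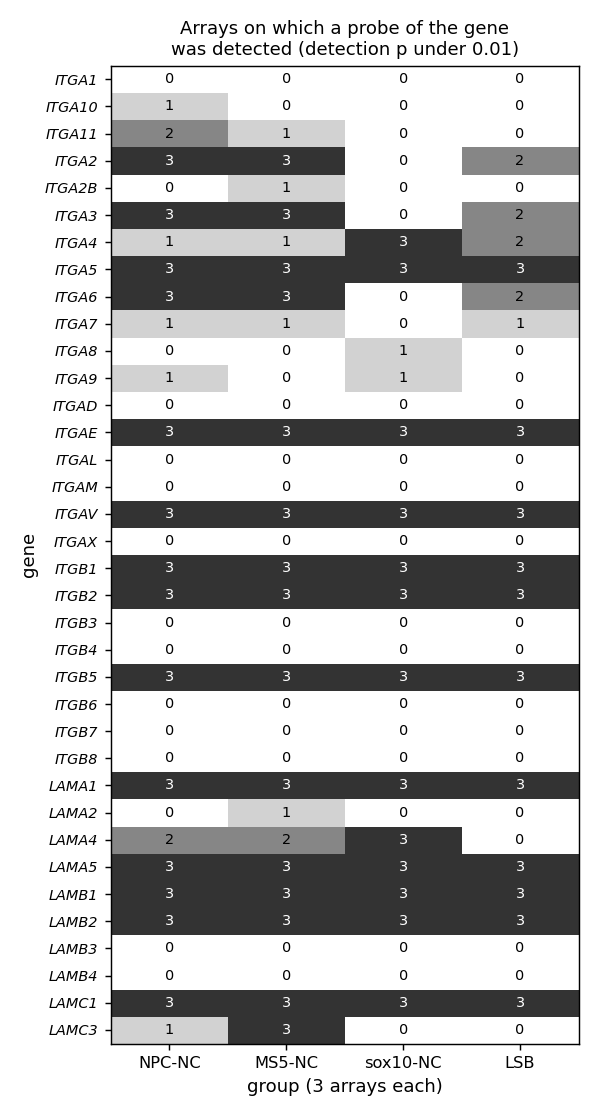
Number of arrays, of 3, on which each of the 36 genes was detected in NPC-NC, MS5-NC, sox10-NC and LSB (columns), with genes as rows; for a gene with several probes the best-detected probe is drawn. Detection was complete for 11 genes and absent for 12.

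The subunits that changed are described first as a group. Against LSB, NPC-NC had 2 of 19 genes higher and 0 lower, where 10.2% and 4.84% of all tested genes were called. MS5-NC had 4 higher and 2 lower than LSB, beside 13% and 7.85% of all genes. The sox10-NC cells had 4 higher and 1 lower than LSB, beside 9.77% and 8.64%. Between NPC-NC and MS5-NC, 0 of 19 were called, beside 0.0355% of all genes higher and 0.0443% lower in limma's test. Only ITGB5 had an unadjusted p under 0.05 there (0.0269), and limma's treat at 1.5-fold also called 0. NPC-NC had 3 higher and 2 lower than sox10-NC, beside 9.31% and 4.73%. MS5-NC had 4 higher and 2 lower than sox10-NC, beside 10.8% and 6.57%.

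The median log2 difference from LSB over the 7 tested laminins was 0.80 in NPC-NC, 0.85 in MS5-NC and 0.72 in sox10-NC. Over the 12 tested integrins it was -0.02, 0.12 and -0.17, and over all tested genes 0.01, 0.00 and -0.02. These medians describe small lists that share the LSB arrays, and no test was made of them or of the difference between the classes.

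The subunit changes differ in how far they rest on the background correction. Of the 24 called changes, those of ITGA4 and LAMB1 between sox10-NC and each other group, and of ITGB5 in MS5-NC and sox10-NC against LSB and in NPC-NC against sox10-NC, stayed called under all 22 alternatives. Without background correction the 24 log2 differences were 1.16 to 3.08 times smaller, and 12 calls ended. At an offset of 50 they were 1.06 to 1.89 times smaller, and 9 calls ended. The LAMA5 calls ended only under limma's treat at 1.5-fold.

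**Figure D2:**
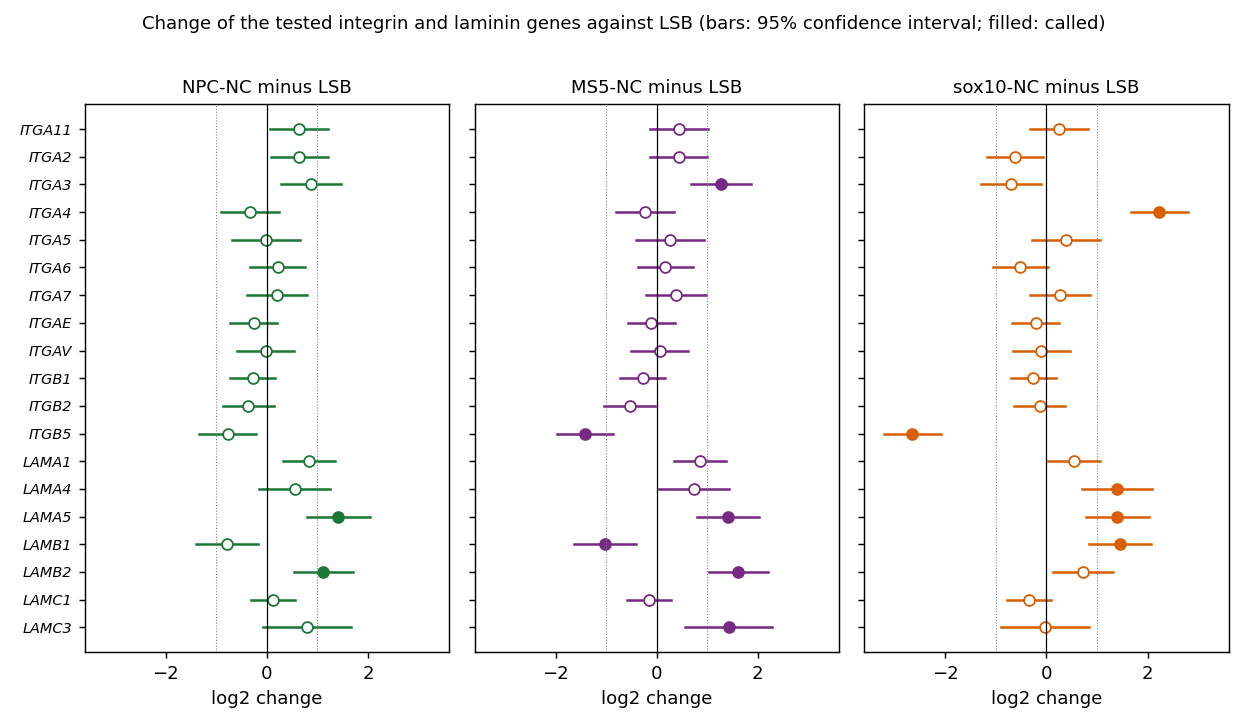
Log2 differences from LSB of the 19 tested genes in NPC-NC, MS5-NC and sox10-NC, with bars for the 95% confidence interval of the 4-group fit and filled points for called changes. LAMA5 is called higher in each of the 3 groups, whereas ITGA4 and LAMB1 are called higher in sox10-NC and ITGB5 has its lowest point there.

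Among the integrin alpha chains, ITGA4 had the widest contrast. ITGA4 pairs with ITGB1 or ITGB7 and binds fibronectin and VCAM1, and it is known in migrating neural crest. Its log2 level was 5.27, 4.57 and 4.74 in NPC-NC and 5.37, 4.55 and 4.98 in MS5-NC, with detection on array 1 only in both. It was 7.10, 7.36 and 7.80 in sox10-NC, against 5.01, 5.44 and 5.13 in LSB, with LSB array 1 below detection. All 3 sox10-NC arrays lay above every array of the other groups. The gene was 4.68-fold higher in sox10-NC than in LSB (log2 2.23 ± 0.27 SE, adjusted p 5.23e-06). It was 5.90-fold lower in NPC-NC than in sox10-NC (adjusted p 9.59e-07) and 5.49-fold lower in MS5-NC than in sox10-NC (adjusted p 1.44e-06). Without background correction the log2 differences of ITGA4 were 1.02 for sox10-NC minus LSB, -1.13 for NPC-NC minus sox10-NC and -1.10 for MS5-NC minus sox10-NC. SOX10 and the crest markers given above move with this difference, and their part in it was not tested.

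LAMB1, described below, was the other subunit called higher in sox10-NC than in each other group. The promoters of both are therefore shown, from RefSeq on GRCh38.p14, as 250 bases before to 50 after the start of the gene. The ITGA4 window lies at chr2:181457136-181457435 on the plus strand and the LAMB1 window at chr7:108003112-108003411 on the minus strand, each written 5′ to 3′ along the gene. Capitals mark matches on either strand to any of 4 motifs searched: ACAAAG and ACAATG, which SOX proteins bind; GCCNNNGGC, bound by TFAP2 proteins; and GGGCGG, the GC box.
ITGA4: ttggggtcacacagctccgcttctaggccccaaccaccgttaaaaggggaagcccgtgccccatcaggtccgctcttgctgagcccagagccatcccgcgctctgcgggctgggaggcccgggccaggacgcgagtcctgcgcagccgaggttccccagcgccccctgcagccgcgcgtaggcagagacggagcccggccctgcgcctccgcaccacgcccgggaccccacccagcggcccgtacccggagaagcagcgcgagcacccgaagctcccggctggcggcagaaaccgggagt
LAMB1: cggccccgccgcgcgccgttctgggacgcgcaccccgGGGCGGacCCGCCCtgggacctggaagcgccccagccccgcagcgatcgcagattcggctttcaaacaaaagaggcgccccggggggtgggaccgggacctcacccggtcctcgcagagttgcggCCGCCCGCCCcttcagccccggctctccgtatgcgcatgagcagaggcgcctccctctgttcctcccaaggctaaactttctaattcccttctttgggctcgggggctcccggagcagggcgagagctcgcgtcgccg
The ITGA4 window held no match to any of the 4. The LAMB1 window held 4 matches to GGGCGG, of which 2 overlap each other, and none to the other motifs. Of 35116 promoters of the same length, 45.0% held GGGCGG, 23.2% GCCNNNGGC, 16.1% ACAAAG and 10.8% ACAATG. Among the 32 windows of these subunits, GGGCGG stood in 18, GCCNNNGGC in 9, ACAAAG in 3 and ACAATG in 1. A match is a run of letters and not a bound site.

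ITGA3 ran the other way between the sorted groups. With ITGB1 it forms a receptor for laminins that contain the alpha-5 or alpha-3 chain. Its log2 level was 5.68, 6.56 and 6.25 in NPC-NC and 6.60, 6.68 and 6.41 in MS5-NC. The sox10-NC arrays read 4.47, 4.57 and 4.73, all below detection. LSB was spread, at 4.72 (below detection), 5.26 and 5.89. The NPC-NC and MS5-NC arrays did not overlap with those of sox10-NC. ITGA3 was at least 1.71-fold higher in NPC-NC than in sox10-NC (log2 1.58 ± 0.28 SE, adjusted p 0.000409). For MS5-NC over sox10-NC the fold was at least 2.25 (adjusted p 3.36e-05). It was 2.41-fold higher in MS5-NC than in LSB (adjusted p 0.00191), a call that ended without LSB array 1, when the log2 difference was 0.99. In NPC-NC the difference from LSB had an adjusted p of 0.0275 but a log2 size of 0.87, under 2-fold. Every ITGA3 call ended without background correction. Those of NPC-NC over sox10-NC and of MS5-NC over LSB also ended at an offset of 50.

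ITGA2 pairs with ITGB1 as a receptor for collagens and laminins. Its log2 level was 5.52, 6.23 and 6.13 in NPC-NC, 6.01, 5.98 and 5.26 in MS5-NC, and 4.50, 4.67 and 4.91 in sox10-NC, where no array detected it. LSB had 5.04 (below detection), 5.59 and 5.30, which overlaps with both NPC-NC and MS5-NC. The gene was at least 1.48-fold higher in NPC-NC than in sox10-NC (log2 1.27 ± 0.27 SE, adjusted p 0.00167). It was at least 1.28-fold higher in MS5-NC than in sox10-NC (log2 1.06 ± 0.27 SE, adjusted p 0.00557). The second of these calls needed all of MS5-NC arrays 1 and 2 and sox10-NC array 1, since the log2 difference was 0.92, 0.95 and 0.98 without each in turn. Both ITGA2 calls also ended without background correction, at an offset of 50 and under limma's treat at 1.5-fold. Neither sorted group with ITGA2 signal was called different from LSB.

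The remaining alpha chains were not called in any comparison. ITGA6, the alpha chain of laminin receptors with ITGB1 or ITGB4, averaged 5.46 ± 0.44 in NPC-NC, 5.42 ± 0.08 in MS5-NC, 4.73 ± 0.14 in sox10-NC and 5.25 ± 0.43 in LSB (SD, n = 3 each). It was detected on 0 of 3 sox10-NC arrays and on all 3 of NPC-NC and of MS5-NC. The log2 difference between NPC-NC and sox10-NC was 0.73 (adjusted p 0.0497), under 2-fold. ITGAV, which joins several beta chains to bind vitronectin and fibronectin, averaged 8.31 ± 0.42, 8.40 ± 0.05, 8.24 ± 0.40 and 8.34 ± 0.35 in NPC-NC, MS5-NC, sox10-NC and LSB. Its log2 differences stayed between -0.10 and 0.16 over the 6 comparisons. ITGA5, the alpha chain of the main fibronectin receptor, averaged 6.67 ± 0.45, 6.95 ± 0.04, 7.07 ± 0.62 and 6.69 ± 0.53 in the same order. ITGAE, best known from T cells in epithelium, was detected on every array, with means of 9.32 ± 0.25, 9.47 ± 0.15, 9.36 ± 0.18 and 9.57 ± 0.21. None of the leukocyte markers was detected beside it on more than 1 array of a group. ITGA7, a laminin receptor chain of muscle, and ITGA11, a collagen receptor chain of fibroblasts, were each detected on 3 of 12 arrays, with levels of 4.46 to 5.63 and 4.50 to 5.76. For genes not called, the arrays do not show that the levels were alike.

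**Figure D3:**
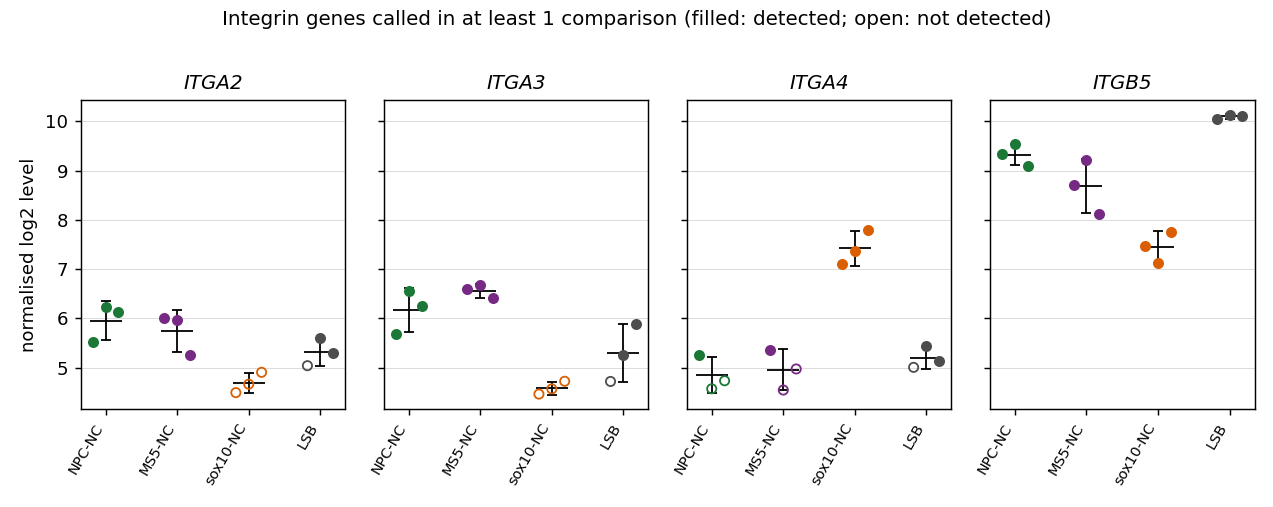
Normalised log2 level of ITGA2, ITGA3, ITGA4 and ITGB5, the integrin genes called in at least 1 comparison, on every array. NPC-NC, MS5-NC, sox10-NC and LSB stand from left to right in each panel, with bars for the group mean and open points for arrays below detection. Tested integrins that were never called are not drawn. ITGA4 stands between 7.10 and 7.80 on the sox10-NC arrays and at most at 5.44 elsewhere, and ITGB5 is between 7.12 and 7.75 on the sox10-NC arrays, below every other array.

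Of the beta chains, ITGB5 was the one that changed. It pairs with ITGAV to bind vitronectin. Its log2 level was 9.33, 9.54 and 9.10 in NPC-NC, 8.71, 9.22 and 8.13 in MS5-NC and 7.46, 7.12 and 7.75 in sox10-NC. The 3 LSB arrays lay close together at 10.05, 10.14 and 10.11, above every array of the sorted groups. ITGB5 was 6.29-fold lower in sox10-NC than in LSB (log2 -2.65 ± 0.27 SE, adjusted p 4.91e-07) and 2.66-fold lower in MS5-NC than in LSB (adjusted p 0.000476). NPC-NC lay below LSB by a log2 difference of -0.77 (adjusted p 0.0359), under 2-fold for this probe. It was 3.68-fold higher in NPC-NC than in sox10-NC (adjusted p 3.50e-05) and 2.36-fold higher in MS5-NC than in sox10-NC (adjusted p 0.00168). Without MS5-NC array 2 the log2 difference between MS5-NC and sox10-NC was 0.98 and the call ended. That call also ended without background correction (0.91).

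ITGB5 had 3 detected probes, which ran the same way in every comparison. Over the 3 probes the log2 difference from LSB was -0.77, -1.005 and -1.20 in NPC-NC, and the last 2 passed both thresholds. In MS5-NC it was -1.41, -1.32 and -1.59, all called. The second of these probes was detected on no sox10-NC array, so no size is given for it against sox10-NC. Its fall in sox10-NC against LSB was called, and its differences of NPC-NC and MS5-NC from sox10-NC were not. The other probes gave -2.65 each for sox10-NC minus LSB, 1.88 and 1.45 for NPC-NC minus sox10-NC, and 1.24 and 1.06 for MS5-NC minus sox10-NC, all called. The partner chain ITGAV was not called in any of these comparisons.

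ITGB1, the common partner of most laminin and collagen receptor alpha chains, averaged 11.10 ± 0.19 in NPC-NC, 11.10 ± 0.25 in MS5-NC, 11.12 ± 0.05 in sox10-NC and 11.38 ± 0.12 in LSB. The 95% confidence interval of the NPC-NC to MS5-NC difference was -0.45 to 0.45. A second detected probe of ITGB1 gave a log2 difference of -0.91 between MS5-NC and LSB (adjusted p 0.00567 over all detected probes), under 2-fold, where the first gave -0.28. ITGB2, the beta chain of leukocyte integrins, averaged 5.76 ± 0.32, 5.59 ± 0.24, 5.996 ± 0.06 and 6.13 ± 0.33 in NPC-NC, MS5-NC, sox10-NC and LSB, and was detected on all 12 arrays. None of its alpha partners ITGAL, ITGAM, ITGAX and ITGAD was detected on any array. A second probe of ITGB2 was detected on 7 of 12 arrays, with 1 in NPC-NC and 1 in MS5-NC. It gave a log2 difference of -0.78 between MS5-NC and LSB (adjusted p 0.0212 over all detected probes), under 2-fold. The first probe gave -0.53 there.

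LAMA5, the alpha chain of laminins that most embryonic epithelia lie on, was higher in every sorted group. Its log2 level was 10.13, 9.96 and 9.55 in NPC-NC, 10.48, 9.98 and 9.16 in MS5-NC and 10.01, 9.51 and 10.08 in sox10-NC, against 8.46, 8.30 and 8.63 in LSB. No sorted array overlapped with LSB. The gene was 2.67-fold higher in NPC-NC than in LSB (log2 1.42 ± 0.29 SE, adjusted p 0.00160), 2.65-fold higher in MS5-NC than in LSB (adjusted p 0.00114) and 2.64-fold higher in sox10-NC than in LSB (adjusted p 0.00128). These 3 comparisons share the LSB arrays. For NPC-NC minus MS5-NC the log2 difference was 0.01, with a 95% confidence interval of -0.61 to 0.63.

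LAMA1, the alpha chain of the first laminin of the embryo, averaged 9.14 ± 0.23 in NPC-NC, 9.16 ± 0.06 in MS5-NC, 8.85 ± 0.45 in sox10-NC and 8.30 ± 0.18 in LSB. The log2 differences from LSB were 0.84 (adjusted p 0.0154) in NPC-NC and 0.85 (adjusted p 0.0103) in MS5-NC, both under 2-fold and not called. LAMA4, an alpha chain of vessels and peripheral nerve, read 5.64, 4.30 and 5.36 in NPC-NC and 5.51, 4.58 and 5.79 in MS5-NC, with array 2 below detection in both. It read 5.78, 5.83 and 6.23 in sox10-NC, against 4.51, 4.71 and 4.44 in LSB, where no array detected it. LAMA4 was at least 1.66-fold higher in sox10-NC than in LSB (log2 1.39 ± 0.33 SE, adjusted p 0.00345). That call ended without background correction and at an offset of 50. A second probe, detected on all 3 sox10-NC arrays and on none of MS5-NC or LSB, was called higher in sox10-NC than in LSB (adjusted p 0.00145) and lower in MS5-NC than in sox10-NC (adjusted p 0.00459). Of 6 endothelial markers, PECAM1, CDH5, KDR and TIE1 were detected on no array, TEK on at least 2 arrays of every group, and CLDN5 on at least 2 arrays of NPC-NC and of MS5-NC. Their summed signal was 207 to 271 in NPC-NC, 196 to 241 in MS5-NC and 166 to 223 in sox10-NC, against 326 to 415 in LSB.

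LAMB1, the beta chain of the earliest laminins, separated sox10-NC from the rest in the way ITGA4 did. Its log2 level was 7.37, 6.64 and 6.99 in NPC-NC and 6.22, 7.09 and 6.98 in MS5-NC. It was 9.66, 8.97 and 9.09 in sox10-NC, against 7.36, 7.82 and 8.17 in LSB. Every sox10-NC array was above every other array, and the MS5-NC arrays were all below LSB. LAMB1 was 2.74-fold higher in sox10-NC than in LSB (log2 1.46 ± 0.29 SE, adjusted p 0.000932). It was 4.72-fold lower in NPC-NC than in sox10-NC (adjusted p 1.48e-05) and 5.57-fold lower in MS5-NC than in sox10-NC (adjusted p 3.65e-06). Its second probe gave log2 differences of 1.76, -2.40 and -2.29 in these 3 comparisons, all called.

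Against LSB, LAMB1 was also 2.03-fold lower in MS5-NC (log2 -1.02 ± 0.29 SE, adjusted p 0.0106), at the edge of the threshold. That call ended without LSB array 2 (-0.99), LSB array 3 (-0.82) or MS5-NC array 1 (-0.75), and the second probe gave -0.52. The call also ended without background correction (-0.62) and at an offset of 50 (-0.83). NPC-NC differed from LSB by -0.78 (adjusted p 0.0532), which was not called. LAMB2, the beta chain that replaces LAMB1 in many mature basement membranes, had 7.29, 6.79 and 7.09 in NPC-NC, 7.47, 7.96 and 7.22 in MS5-NC, 6.42, 6.92 and 6.62 in sox10-NC and 6.26, 5.31 and 6.23 in LSB. All 9 sorted arrays were above all 3 LSB arrays. LAMB2 was 3.06-fold higher in MS5-NC than in LSB (log2 1.61 ± 0.28 SE, adjusted p 0.000238) and 2.17-fold higher in NPC-NC than in LSB (log2 1.12 ± 0.28 SE, adjusted p 0.00612). The NPC-NC call ended without LSB array 2, when the log2 difference was 0.80. Both LAMB2 calls ended without background correction, and the NPC-NC call also at an offset of 50. In sox10-NC the difference from LSB was 0.72 (adjusted p 0.0545), not called. The log2 difference between MS5-NC and sox10-NC was 0.89 (adjusted p 0.0216), under 2-fold.

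LAMC1, the gamma chain of most laminins, had no call. It averaged 10.50 ± 0.16 in NPC-NC, 10.22 ± 0.14 in MS5-NC, 10.03 ± 0.10 in sox10-NC and 10.37 ± 0.13 in LSB. LAMC3, a gamma chain known from brain and retina, was uneven among replicates. NPC-NC had 6.59 on array 1 and 4.72 and 4.89, below detection, on the others. LAMC3 read 5.29, 5.92 and 6.89 in MS5-NC and 4.52, 4.63 and 4.58 in sox10-NC, against 4.40, 4.50 and 4.91 in LSB. No array of sox10-NC or LSB detected it. LAMC3 was at least 1.76-fold higher in MS5-NC than in LSB (log2 1.43 ± 0.41 SE, adjusted p 0.0109). Over sox10-NC the fold of MS5-NC was at least 1.56 (log2 1.45 ± 0.41 SE, adjusted p 0.0121). Both calls ended without MS5-NC array 3, when the log2 differences were 1.01 (adjusted p 0.0767) and 1.04 (adjusted p 0.0854). They also ended with no filter on detection (adjusted p 0.0531 and 0.0599), without background correction and at an offset of 50, and LAMC3 was not tested when 6 arrays had to detect it.

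**Figure D4:**
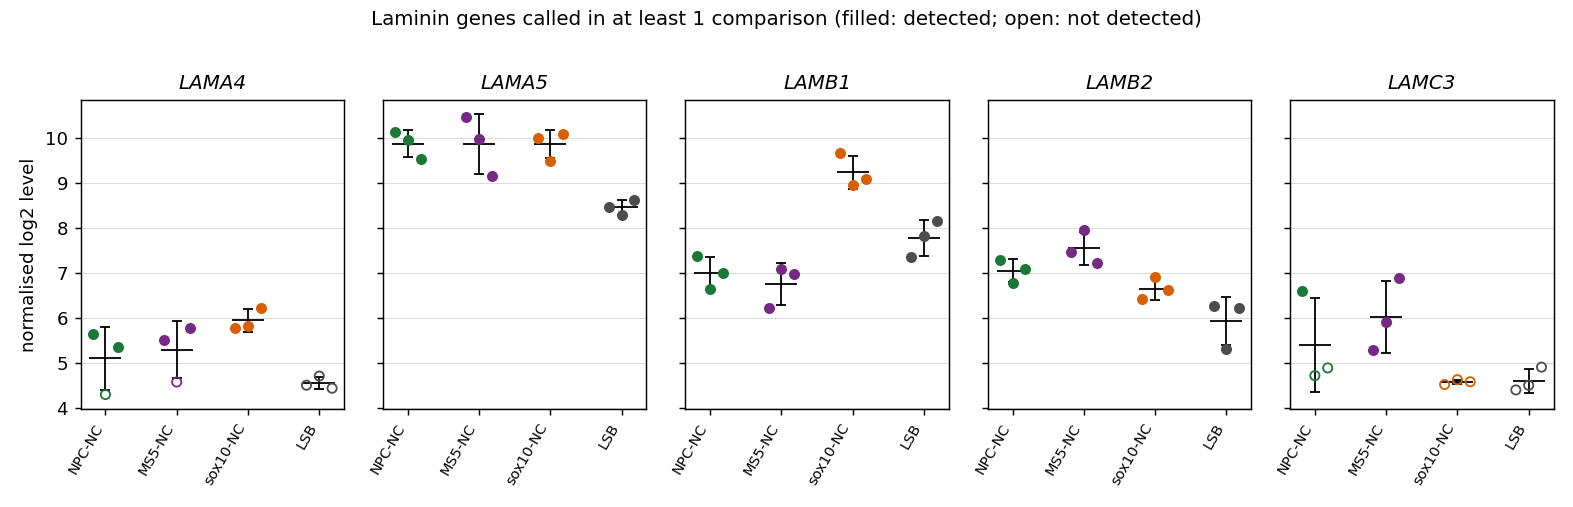
Normalised log2 level on every array of the laminin genes called in at least 1 comparison. NPC-NC, MS5-NC, sox10-NC and LSB stand from left to right in each panel, with bars for the group mean and open points for arrays below detection. LAMA1 and LAMC1, tested but never called, are not drawn. LAMA5 is above LSB on all 9 sorted arrays, LAMB1 is highest on the 3 sox10-NC arrays, and LAMC3 is raised on MS5-NC arrays and on 1 NPC-NC array.

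Markers of other cells moved with some of these differences. Mesenchymal markers had a summed signal of 1710 to 4920 in NPC-NC, 2690 to 3590 in MS5-NC and 1950 to 4170 in sox10-NC, against 574 to 795 in LSB, with 6, 6, 5 and 4 of 7 detected. Neuronal markers, 5 of 6 detected in each group, summed to 11300 to 13400, 13700 to 17100 and 2870 to 7500 in the sorted groups and to 2260 to 2600 in LSB. Epithelial markers ran lower in the sorted groups, at 653 to 824, 468 to 696 and 324 to 807, against 2800 to 3160 in LSB, with 4, 4, 4 and 5 of 7 detected and KRT5 and KRT14 on no array. Neuroepithelial markers were low in sox10-NC, at 605 to 819, against 9720 to 10400 in LSB. Their part in the changes of LAMA5, LAMB2, LAMC3, ITGA2, ITGA3 and ITGB5 was not tested.

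The proteins that laminins are built into a sheet with were read as a list of 15, of which 12 were tested. Higher than LSB were 5 in NPC-NC, 5 in MS5-NC and 4 in sox10-NC. Lower were 0, 0 and 1. Of all genes 10.2%, 13% and 9.77% were higher than LSB in these groups, and 4.84%, 7.85% and 8.64% lower. AGRN, a heparan sulfate proteoglycan that binds laminin, was higher than LSB by a log2 difference of 2.02 ± 0.26 SE in NPC-NC (adjusted p 2.20e-05), 2.07 ± 0.26 SE in MS5-NC (adjusted p 1.04e-05) and 1.46 ± 0.26 SE in sox10-NC (adjusted p 0.000354). COL4A2, a chain of the type IV collagen network, was higher by 1.72 ± 0.25 SE in NPC-NC and 1.22 ± 0.25 SE in MS5-NC. COL18A1, whose product ends in endostatin, was higher than LSB in all 3 sorted groups, by 1.71 ± 0.28 SE in NPC-NC (adjusted p 0.000184), 1.72 ± 0.28 SE in MS5-NC (adjusted p 0.000121) and 2.73 ± 0.28 SE in sox10-NC (adjusted p 5.74e-07). NID1, the nidogen that links laminin to type IV collagen, was higher by 1.58 ± 0.26 SE in sox10-NC, with detection on 1 of 3 LSB arrays. COL4A6 was higher than LSB by 1.62 ± 0.24 SE in NPC-NC and 1.96 ± 0.24 SE in MS5-NC, and lower by a log2 difference of -1.11 in sox10-NC, which was -0.88 and no call without sox10-NC array 2.

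Between the sorted groups, 4 basement membrane genes were higher and 2 lower in NPC-NC than in sox10-NC, beside 9.31% and 4.73% of all genes. MS5-NC had 3 higher and 2 lower than sox10-NC, beside 10.8% and 6.57%. COL4A6 differed most, by 2.73 ± 0.24 SE for NPC-NC and 3.07 ± 0.24 SE for MS5-NC. SPARC, a matricellular collagen-binding protein, was higher by 1.498 ± 0.32 SE in NPC-NC and 1.97 ± 0.32 SE in MS5-NC than in sox10-NC. NID1 was lower than in sox10-NC by log2 differences of -1.18 in NPC-NC and -1.65 in MS5-NC. Detection of NID1 held on 1 array in MS5-NC, so the second size leans on values at background. Both of these NID1 calls ended without background correction. COL18A1 was lower than in sox10-NC by -1.02 in NPC-NC and -1.01 in MS5-NC. Those 2 calls ended without NPC-NC array 3 (-0.93) or sox10-NC array 2 (-0.79), and without MS5-NC array 3 (-0.79) or sox10-NC array 2 (-0.78). Between NPC-NC and MS5-NC, 0 of 12 were called by limma, with 1 at an unadjusted p under 0.05.

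Of 27 other integrin ligands, 13 were tested. Against LSB, 1 was higher and 1 lower in NPC-NC, 1 and 1 in MS5-NC, and 2 and 1 in sox10-NC. For NPC-NC and MS5-NC a single gene of 13 higher is below the 10.2% and 13% of all genes. Called lower there were 4.84% and 7.85% of all genes. In sox10-NC the shares over all genes were 9.77% higher and 8.64% lower. SPP1, the secreted ligand osteopontin, averaged 5.68 ± 0.81 in NPC-NC, 4.97 ± 0.21 in MS5-NC, 9.73 ± 0.78 in sox10-NC and 7.05 ± 0.44 in LSB. It was higher in sox10-NC than in LSB by 2.68 ± 0.38 SE (adjusted p 3.62e-05) and lower in MS5-NC than in LSB by a log2 difference of -2.09. NPC-NC was lower than LSB by -1.38, a call that ended without LSB array 2 (-1.11) or NPC-NC array 3 (-0.98). Against sox10-NC, SPP1 was lower by -4.05 in NPC-NC and -4.77 in MS5-NC. Detection of SPP1 held on 2 arrays in NPC-NC and on 1 in MS5-NC, so these sizes lean on values at background.

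VCAM1, the membrane ligand of the ITGA4 receptor, averaged 6.36 ± 0.53 in NPC-NC, 6.39 ± 0.44 in MS5-NC, 4.44 ± 0.12 in sox10-NC, where no array detected it, and 5.77 ± 0.32 in LSB. For NPC-NC and MS5-NC over sox10-NC its fold was at least 1.96 and 2.00. It was at least 1.29-fold lower in sox10-NC than in LSB. L1CAM, a neural adhesion molecule, was at least 1.99-fold higher in sox10-NC than in LSB. It was at least 2.13-fold lower in NPC-NC, where no array detected it, than in sox10-NC. TGFBI, a secreted matrix protein, was higher in MS5-NC than in LSB by 1.64 ± 0.40 SE and than in sox10-NC by 1.80 ± 0.40 SE. TGFBI was also called higher in NPC-NC than in sox10-NC. CCN1, a matricellular protein, was higher in NPC-NC than in LSB by 1.42 ± 0.47 SE (adjusted p 0.0287) and than in sox10-NC by 1.67 ± 0.47 SE (adjusted p 0.0137). The first of these ended without LSB array 1 (1.31), LSB array 2 (1.38) or NPC-NC array 1 (1.00), and the second without NPC-NC array 1 (1.25), sox10-NC array 1 (1.18) or sox10-NC array 3 (1.53). CCN1 was also called higher in MS5-NC than in sox10-NC, by 1.26 ± 0.47 SE (adjusted p 0.0493). In all, 4 ligands were higher and 2 lower in NPC-NC than in sox10-NC, and 3 and 1 in MS5-NC. The shares over all genes were 9.31% higher and 4.73% lower for NPC-NC, and 10.8% and 6.57% for MS5-NC. Between NPC-NC and MS5-NC limma called 0, with 2 at an unadjusted p under 0.05.

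Inside the cell, integrin tails hold adaptors and kinases, of which 36 were listed and 26 tested. Against LSB, 2 were higher and 3 lower in NPC-NC, 2 and 4 in MS5-NC, and 3 and 1 in sox10-NC. The 2 of 26 higher in NPC-NC and in MS5-NC are below the 10.2% and 13% of all genes. The 3 and 4 of 26 lower in these groups are above the 4.84% and 7.85% of all genes. In sox10-NC the share over all genes was 9.77% higher and 8.64% lower. ZYX, a focal adhesion protein of actin bundles, was higher in all 3 sorted groups, by 1.60 ± 0.25 SE in NPC-NC, 1.74 ± 0.25 SE in MS5-NC and 2.03 ± 0.25 SE in sox10-NC. TGFB1I1, a paxillin relative, was below detection on every LSB array and at least 1.48-fold higher in NPC-NC and 2.27-fold higher in MS5-NC than in LSB. CAV1, the caveolin that binds integrins, was lower than LSB by a log2 difference of -1.72 in NPC-NC, where 1 of 3 arrays detected it. In MS5-NC, where no array detected it, it was at least 2.78-fold lower. FERMT2, a kindlin that activates integrins, was lower by -1.37 in NPC-NC and -1.09 in MS5-NC, and RSU1, a partner of the ILK complex, by -1.54 in MS5-NC. In sox10-NC, FYN, a SRC-family kinase, was higher than LSB by 1.23 ± 0.22 SE. With its detected probes averaged, the difference was 0.83 and no call. CIB1, which binds an integrin tail, was lower than LSB in sox10-NC by -1.04, or by -0.83 and no call without sox10-NC array 1.

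Among the sorted groups, NPC-NC had 1 adaptor higher and 1 lower than sox10-NC, and MS5-NC had 1 and 2. Of all genes, 9.31% were higher and 4.73% lower in NPC-NC than in sox10-NC, and 10.8% and 6.57% in MS5-NC. CAV1 was at least 2.01-fold lower in MS5-NC than in sox10-NC, and ITGB3BP, a nuclear protein first found with the ITGB3 tail, was lower by -1.29. ITGB3BP was also called lower than LSB in NPC-NC and in MS5-NC. CAV1 was lower in NPC-NC than in sox10-NC by -1.24, which was -1.06, -1.03 and -0.87 and no call without NPC-NC array 2, NPC-NC array 3 and sox10-NC array 2. CIB1 was higher in NPC-NC than in sox10-NC by 1.08, or 0.90 and 0.88 and no call without NPC-NC array 2 and sox10-NC array 1. TGFB1I1 was higher in MS5-NC than in sox10-NC by 1.04, or 0.95 and no call without sox10-NC array 3. For NPC-NC minus MS5-NC limma called 0 of 26, with 2 at an unadjusted p under 0.05.

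Membrane proteins that travel with integrins, 10 listed and 9 tested, included 3 that changed, CD9, CD81 and CD82, all of them tetraspanins. The other tetraspanins tested, CD151 and TSPAN4, were not called in any comparison. CD9 was lower than LSB by a log2 difference of -1.21 in NPC-NC and -1.07 in MS5-NC. In sox10-NC, where no array detected it, CD9 was at least 2.41-fold lower. The MS5-NC call ended without LSB array 1 (-0.97) or MS5-NC array 3 (-0.83), and under median scaling. Both the NPC-NC and the MS5-NC call of CD9 ended at an offset of 50, with detected probes averaged and under limma's treat at 1.5-fold. All 3 CD9 calls ended without background correction. CD82 was lower in sox10-NC than in LSB by -1.85, and higher than in sox10-NC by 1.60 ± 0.33 SE in NPC-NC and 1.89 ± 0.33 SE in MS5-NC. CD81 was higher in MS5-NC than in LSB by 1.11, or 0.96 and 0.93 and no call without LSB array 2 and MS5-NC array 3. In counts, 0 were higher and 1 lower than LSB in NPC-NC, 1 and 1 in MS5-NC, and 0 and 2 in sox10-NC, beside 10.2% and 4.84%, 13% and 7.85%, and 9.77% and 8.64% of all genes. Limma called 0 between NPC-NC and MS5-NC, with 0 at an unadjusted p under 0.05.

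Laminin receptors that are not integrins were a list of 10, of which 6 were tested. Against LSB, 1 gene was higher and 1 lower in NPC-NC, 0 and 1 in MS5-NC, and 1 and 1 in sox10-NC. The shares over all genes were 10.2% and 4.84%, 13% and 7.85%, and 9.77% and 8.64%. With 6 genes tested, the counts are too few to be weighed against these shares. SDC2, a syndecan that carries heparan sulfate, was lower than LSB in all 3 sorted groups. Its mean log2 level was 7.21 ± 0.05 in NPC-NC, 6.88 ± 0.02 in MS5-NC and 5.93 ± 0.22 in sox10-NC, against 8.74 ± 0.22 in LSB. The log2 differences were -1.54 ± 0.21 SE in NPC-NC (adjusted p 3.92e-05), -1.86 ± 0.21 SE in MS5-NC (adjusted p 3.28e-06) and -2.81 ± 0.21 SE in sox10-NC (adjusted p 1.39e-08). SDC2 was higher in NPC-NC than in sox10-NC by 1.27 ± 0.21 SE. GPC1, a glypican, was higher than LSB by 1.09 in NPC-NC and 1.00 in sox10-NC. Those calls ended without LSB array 3 (0.98 and 0.89), and the sox10-NC call also without sox10-NC array 3 (0.81). DAG1 and RPSA had no probe under those symbols that was used here. For NPC-NC minus MS5-NC limma called 0 of 6, with 1 at an unadjusted p under 0.05.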

How the data were processed

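Per the labels, total RNA was extracted with Trizol, labelled with biotin and hybridised to Illumina arrays. GenomeStudio is named in the submitters' processing notes without a version. The authors deposited, per the file headers, a mean bead intensity on the linear scale, a detection p-value and a bead count for each probe and array. Its 12 columns of standard errors over beads were left out. A second deposited table, the series matrix, gives a processed intensity with medians of 7.54 to 7.58. Its steps are unstated, and it was used as an alternative only.

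Symbols come from the array annotation, updated with RefSeq genes of GRCh38.p14. Intensities were normalised with neqc (offset 16) in limma 3.58.1 under R 4.3.3. Probes with a detection p-value under 0.01 on at least 3 of 12 arrays were kept, 18427 in all, and each gene was read from its kept probe with the highest mean. One model of 4 groups (lmFit, eBayes) gave 6 two-sided comparisons with Benjamini-Hochberg adjustment over 11280 genes. It was tested on simulated data. Another kept probe of a gene was fitted over all kept probes.

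The genes and lists were chosen with earlier results of these data known. Called subunits are given by array, subunits tested and never called by group, and from each list up to 2 called genes per direction and comparison with the largest log2 change among those detected on all arrays of the higher group. Calls of such a gene in further comparisons are given beside it, without their alternatives. Alternatives were background correction, offset, scaling, detection filter, probe rule, test, samples in the fit, replicate block, deposited processed values and leaving out each array.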

Additional observations from a re-analysis of the deposited data

How the results depend on the processing

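Of 24 called subunit changes, 9 stayed called under all 22 alternatives, 15 lost the call under at least 1, and 0 reversed. Of 58 named changes of the pathway lists, 20 stayed called, 38 lost the call under at least 1 and 0 reversed. For the pathway lists, the losses named above are mainly those from leaving out an array. Without background correction, 12 subunit and 31 pathway changes were lost. The number of called subunits was then 1 between NPC-NC and LSB, 2 between MS5-NC and LSB, 3 between NPC-NC and sox10-NC and 2 between MS5-NC and sox10-NC, where the settings used above gave 2, 6, 5 and 6. An offset of 50 gave 1, 3 and 3 in the first 3 of these. The treat test at 1.5-fold gave 0 between NPC-NC and LSB, 2 between MS5-NC and LSB, 3 between sox10-NC and LSB (5 above) and 3 between MS5-NC and sox10-NC. Leaving out each array in turn gave 1 to 3 between NPC-NC and LSB (1 without LSB array 2), 5 to 7 between MS5-NC and LSB, 5 between sox10-NC and LSB, 0 between NPC-NC and MS5-NC, 5 to 6 between NPC-NC and sox10-NC and 4 to 7 between MS5-NC and sox10-NC. The cause was not tested. Median scaling added calls of ITGA3 between NPC-NC and LSB and of LAMA4 between MS5-NC and LSB, and ended that of LAMB1 between MS5-NC and LSB (-0.92).

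With the replicate block, the counts were 2, 6, 5, 0, 5 and 6, as without it. After each group's mean was taken off, arrays of the same number in different groups correlated between -0.0878 and 0.179. The highest values were 0.179 and 0.148, for arrays 1 and 2 of NPC-NC with those of sox10-NC. There the same number was also the best match. Whether samples of the same number share more than a number is not settled by this. No slide is named for the arrays, so a slide block was not run. Signal over background limits the genes near the detection floor, at log2 5.08 to 5.45.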
